A study of Homo sapiens with 10 samples.

Results

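RUNX1T1, CBFA2T2 and CBFA2T3 are the 3 genes of the ETO family. Their chromatin was examined with every peak of the deposited lists that touched the RefSeq body of a member on GRCh38 or the 50 kb on either side of it. That rule took 209 of the 308616 peaks, with 52 at RUNX1T1, 78 at CBFA2T2 and 79 at CBFA2T3. The 3 genes are 3 of 19974 protein-coding genes, and the share of all of those genes that met the same rule is given beside the members' counts.

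The peaks came from chromatin immunoprecipitation followed by sequencing (ChIP-seq) in Kelly, a MYCN-amplified line of adrenergic neuroblastoma. The 5 groups had 2 libraries each. RCOR1 and RCOR3 were pulled down from untreated cells with antibodies to the proteins themselves. RCOR2 was pulled down with a FLAG antibody after 48 h of 2 µg/mL doxycycline, which switches on a tagged RCOR2 transgene, so its peaks show an added protein and not the cells' own. LSD1 was pulled down from a Kelly derivative that holds a doxycycline-driven shRNA against RUNX1T1 itself. No doxycycline was given to those cells, and no library with that shRNA switched on was analysed here. The background group had the FLAG antibody and no doxycycline. Nothing in the labels says that the 2 libraries of a group came from separate cultures, so differences between them may be technical.

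The proteins encoded by the ETO family are nuclear scaffolds that do not bind DNA in a sequence-specific way. They are brought to chromatin by transcription factors such as the E proteins and carry histone deacetylases and other corepressors to it. RUNX1T1 (ETO, MTG8) is the partner of RUNX1 in a fusion of acute myeloid leukaemia, CBFA2T2 is also called MTGR1, and CBFA2T3 (ETO2, MTG16) is best known from blood cell development. RCOR1, RCOR2 and RCOR3 are the CoREST scaffolds that hold LSD1, a demethylase of histone H3, together with histone deacetylases. The peaks described here show where these corepressors lay on the ETO family genes. They do not show where the ETO proteins were bound, nor how much the genes were transcribed.

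A region is given below where both libraries of a group had a peak, with an overlap of at least 1 bp. Fold means the authors' fold enrichment of a peak over local background, a ratio that can be ranked within a list and not compared between antibodies. A peak was at an end when it overlapped the 2 kb on either side of an end of a protein-coding body. The RefSeq promoter table places a further start site inside 2 members, 72.25 kb into CBFA2T2 and 35.86 kb into CBFA2T3, and these were kept apart from the ends. Start sites inside RUNX1T1 were not analysed here, so its regions inside the body are away from its ends but not shown to be away from a start.

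The promoter sequences at those internal start sites are shown because peaks of all 4 proteins lay on that of CBFA2T2, and a peak of a single RCOR2 library on that of CBFA2T3. Both are RefSeq sequences of GRCh38.p14, written 5′ to 3′ in the direction of the gene, with 250 bases before the start site and 50 after it. CBFA2T2 lies at chr20:33562092-33562391 on the forward strand, and CBFA2T3 at chr16:88941301-88941600 on the reverse strand. Capitals mark the matches, on either strand, to 4 motifs searched for.
CBFA2T2: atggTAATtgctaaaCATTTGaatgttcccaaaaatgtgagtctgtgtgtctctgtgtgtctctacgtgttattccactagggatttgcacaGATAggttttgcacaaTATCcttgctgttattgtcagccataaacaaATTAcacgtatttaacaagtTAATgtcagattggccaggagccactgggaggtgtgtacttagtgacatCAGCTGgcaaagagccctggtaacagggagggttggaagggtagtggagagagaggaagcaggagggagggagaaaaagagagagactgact
CBFA2T3: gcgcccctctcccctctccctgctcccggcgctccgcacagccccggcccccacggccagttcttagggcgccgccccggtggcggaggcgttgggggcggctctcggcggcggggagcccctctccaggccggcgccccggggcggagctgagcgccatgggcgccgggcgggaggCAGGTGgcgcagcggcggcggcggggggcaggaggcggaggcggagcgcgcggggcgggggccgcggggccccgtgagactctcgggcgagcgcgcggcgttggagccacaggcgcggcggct
The motifs were the E-box CANNTG read by E proteins and other basic helix-loop-helix factors, GATA, the homeodomain core TAAT, and TGTGGT, the core read by RUNX proteins. The CBFA2T2 promoter held 2 E-boxes, 2 GATA and 3 TAAT matches, none overlapping another. The CBFA2T3 promoter held 1 E-box, and no match to the other 3 motifs was in its 300 bases. TGTGGT was in neither. Over all 34961 promoters of the table, CANNTG was in 68.7%, GATA in 49.7%, TAAT in 50.2% and TGTGGT in 13.1%, so a match is common for the first 3. Base composition set the pair further apart. The CBFA2T2 promoter had 44.3% G and C with 2 CG pairs, and the CBFA2T3 promoter had 83% with 46 CG pairs, against medians of 58.7% and 14 over all promoters.

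RUNX1T1 occupies chr8:91954967-92103385 (148.4 kb, reverse strand), and no other protein-coding gene lies in its 248.4 kb window. It held 3 RCOR1 regions, 4 RCOR2 regions, 1 RCOR3 region, 4 LSD1 regions and no region of the uninduced FLAG libraries. At least 1 region in the window was present for 60.5% of all genes with RCOR1, 89.7% with RCOR2, 35.5% with RCOR3, 32.5% with LSD1 and 15.7% with uninduced FLAG. Presence alone therefore says little for RCOR1 and RCOR2. The number of LSD1 regions was less common, since 4 or more were found in the windows of 4.47% of all genes. The shares of genes with at least as many were 21.5% for the 3 RCOR1 regions and 43.5% for the 4 RCOR2 regions. These counts are not adjusted for window length. Per 100 kb, RUNX1T1 had 1.61 RCOR2 regions, below the median of 1.94 over all genes. It had 1.21 RCOR1 regions against a median of 0.685, and 1.61 LSD1 regions against 0.

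Merged over the 4 proteins, RUNX1T1 had 5 regions, with 1 at its 5′ end and 4 inside the body. The 5′ end region, at 92101231-92103985, was the strongest RCOR2 site of the gene. Its highest RCOR2 folds were 41.5 and 35.6 in the induced libraries, with no peak there in either uninduced library. The first of these stood above 99.68% of the peaks of its list, and the second above 91.9% of its own. RCOR1 was found in the region in both libraries, with highest folds of 7.04 and 7.88. Those peaks, at 92101231-92102778 and 92101355-92101493, lay beside the strongest RCOR2 peaks, and the first met them only at its edge. The highest RCOR1 peaks centred within the strongest RCOR2 peaks had folds of 5.82 and 4.33. RCOR3 had a peak in replicate 2 alone, with a fold of 11.8. LSD1 also lacked support at the 5′ end: replicate 1 had a fold of 2.72 there and replicate 2 had no peak. A replicate 1 peak with a fold of 4.17, at 92101104-92101359, met the region at its inner edge but lay outside the 2 kb end window.

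LSD1 lay on all 4 merged regions inside the RUNX1T1 body, and none of its 4 regions was at an end. A pair of them sat close together 83.2 and 84.1 kb from the 5′ end. The region 84.1 kb in, at 92018938-92019578, had LSD1 folds of 15.1 and 13.9, above 97.1% and 92.1% of their lists. RCOR2 (6.34 and 4.43 in the induced libraries) and RCOR3 (4.94 and 4.93) shared it, and RCOR1 had a peak of 9.24 in replicate 1 alone. Its neighbour 83.2 kb in, at 92019953-92020345, had LSD1 in both libraries, at 9.61 and 7.42, and otherwise a single RCOR1 peak of 4.03. The other 2 internal regions were nearer to the 5′ end. The one 40.6 kb in, at 92062442-92063020, held RCOR1 (10.1 and 4.73), RCOR2 (8.85 and 10.1 in the induced libraries) and LSD1 (8.67 and 4.94), with no RCOR3 peak. The one 4.56 kb in, at 92098632-92099009, had LSD1 in both libraries (5.75 and 8.06) and single peaks of RCOR1 (10.4) and RCOR3 (4.52). No RCOR2 peak overlapped it.

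All 5 regions overlapped the authors' list of RCOR2-low regions, the 5′ end with its high RCOR2 fold included. The sources used here do not say how that list was made, and the share of all regions on it was not counted. The uninduced FLAG libraries had 1 peak in the RUNX1T1 window, from replicate 2 with a fold of 5.66, near the 3′ end where no protein had a region.

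**Figure D1:**
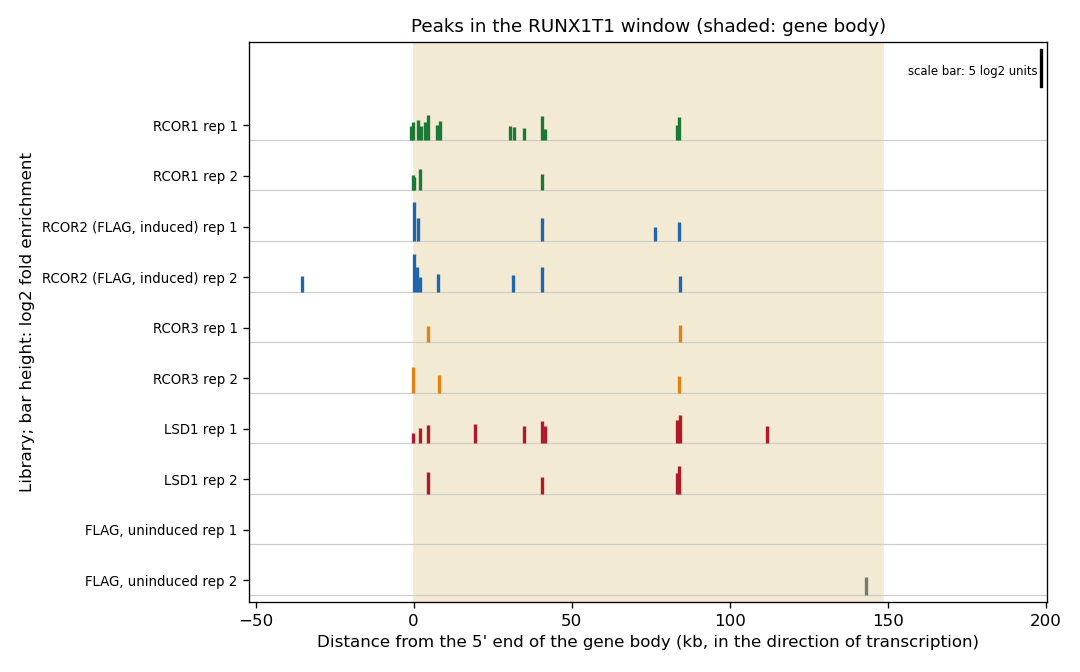
Peaks of the 10 libraries along the RUNX1T1 window, with distance from the 5′ end of the gene body in kb on the horizontal axis and 1 line per library. Bar height is log2 fold enrichment (the scale bar is 5 log2 units) and the shaded part is the gene body. Induced RCOR2 is tallest at 0 kb, while LSD1 is tallest in both libraries at the region 84.1 kb inside.

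CBFA2T2 occupies chr20:33490096-33650030 (159.9 kb, forward strand), and its window also holds ends of NECAB3, C20orf144, ACTL10 and E2F1, among others. It had 6 RCOR1, 10 RCOR2, 4 RCOR3 and 4 LSD1 regions and 1 region of the uninduced FLAG libraries. At least as many regions were found in the windows of 4.01% of all genes for RCOR1, 11.1% for RCOR2, 3.44% for RCOR3 and 4.47% for LSD1. Merged over the proteins these made 13 regions. Inside or at the ends of CBFA2T2 itself lay 6 of them, with 1 at the 5′ end, 1 at the internal start site and 4 elsewhere in the body. A further 6 lay at ends of the neighbouring genes and 1 in the flank. Per 100 kb, the CBFA2T2 window held 2.31 RCOR1, 3.85 RCOR2, 1.54 RCOR3 and 1.54 LSD1 regions. The medians over all genes were 0.685, 1.94, 0 and 0 in that order.

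The region at the internal start site of CBFA2T2, at 33562036-33562838 and 72.3 kb from the 5′ end, was the 1 region of the family with all 4 proteins in both libraries. A region of all 4 was present in the windows of 8.65% of all genes. LSD1 had folds of 16.9 and 18.4 there, above 98.1% and 96.3% of the peaks of their lists, which were its highest folds in the 3 windows. RCOR1 had 14.7 and 4.96, RCOR2 5.55 and 11.9 in the induced libraries, and RCOR3 6.89 and 8.49. Neither uninduced FLAG library had a peak. For RCOR1 and RCOR2 the folds of the 2 libraries differed by more than 2 times, whereas those of RCOR3 and LSD1 were close.

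Of the 300 promoter bases printed above, the LSD1 peaks covered 300 and 299. The RCOR1 peaks covered 229 and 37 of them, the RCOR2 peaks of the induced libraries 47 and 107, and the RCOR3 peaks 75 and 225. The LSD1 peaks thus took in every motif match marked in the sequence, in both libraries. The peaks of RCOR1 replicate 2 and of RCOR2 replicate 1 began after the start site and took in none of them.

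The 5′ end of CBFA2T2 had another make-up. RCOR2 had folds of 19.9 and 40.9 in the induced libraries at 33489533-33491006, against 4.67 and 7.08 in the uninduced libraries. This was the single region in the 3 windows that both uninduced libraries shared, so the FLAG antibody gave peaks there without doxycycline too. RCOR1 (7.04 and 5.25) and RCOR3 (5.49 and 4.08) were found in both libraries, and LSD1 had 1 peak, from replicate 2, with a fold of 4.17. The region overlapped the authors' RCOR2-high list, unlike the 5′ end of RUNX1T1.

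Inside the body, 2 regions held RCOR1, RCOR3 and LSD1 in both libraries and RCOR2 in replicate 1 alone. The region 9.49 kb in, at 33499111-33500063, had folds of 12.4 and 5.33 for RCOR1, 5.17 and 4.48 for RCOR3, 7.05 and 6.84 for LSD1, and 4.43 for the single RCOR2 peak. The region 78.4 kb in, at 33567969-33568997, had 6.71 and 5.25 for RCOR1, 5.17 and 4.48 for RCOR3, 5.68 and 6.35 for LSD1, and 8.30 for the single RCOR2 peak. A weaker LSD1 region lay 41.7 kb in (4.35 and 4.12), where RCOR1 had a peak in replicate 1 alone. RCOR2 had a region of its own 46.6 kb in, with folds of 5.36 and 14.8 in the induced libraries.

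The remaining regions of the CBFA2T2 window belonged by position to its neighbours and were mostly regions of RCOR2. RCOR2 had folds of 15.5 and 35.1 at an end of C20orf144, 20.9 and 28.7 at ACTL10, and 10.3 and 42.5 at E2F1, all in the induced libraries. At a region near ends of both E2F1 and NECAB3 the libraries were far apart, at 6.64 and 35.1, and a second region at E2F1 was weak, at 4.98 and 4.25. E2F1 encodes a transcription factor of the cell cycle. RCOR1 shared the stronger E2F1 region (4.97 and 4.68). Uninduced FLAG had peaks in replicate 1 alone at ACTL10 (6.22) and E2F1 (5.06). No LSD1 peak touched any of the regions at these neighbouring ends.

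**Figure D2:**
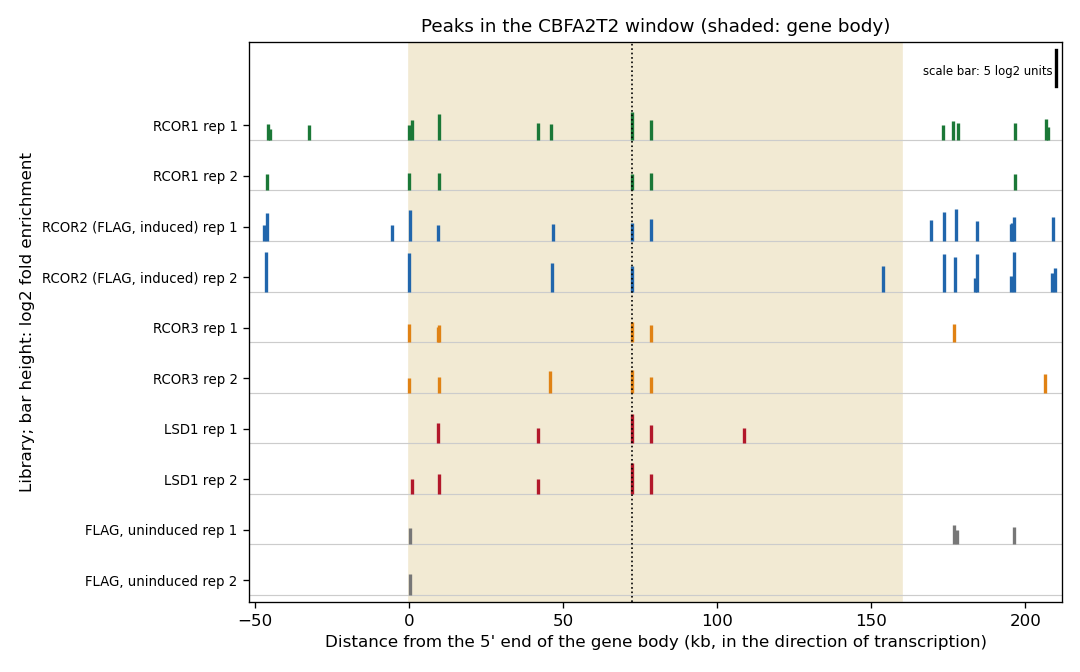
Peaks of the 10 libraries along the CBFA2T2 window, drawn as distance from the 5′ end in kb with bar height as log2 fold enrichment. The dotted line is the internal start site at 72.25 kb, where all 4 proteins have a peak in both libraries and the LSD1 bars are tallest. To the right of the shaded body, at the neighbouring genes, the tallest bars are those of induced RCOR2.

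CBFA2T3 occupies chr16:88874858-88977207 (102.3 kb, reverse strand), with GALNS, TRAPPC2L and PABPN1L in its window. Its window held 15 regions of RCOR2 and no region of RCOR1, RCOR3 or LSD1. RCOR2 regions with none of the other 3 proteins were found in the windows of 24.9% of all genes. As many as 15 RCOR2 regions were rarer, with 934 genes (4.68%) at or above that number, and 83 of these (8.89%) had no region of another protein. Per 100 kb the window held 7.41 RCOR2 regions, against a median of 1.94 over all genes. No RCOR3 or LSD1 library had a single peak in the window. RCOR1 had 4 peaks in replicate 1 and 0 in replicate 2. Uninduced FLAG had 0 peaks in replicate 1 and 1 peak in replicate 2, with a fold of 6.13, in the flank before the 5′ end.

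The induced RCOR2 libraries had 47 and 27 peaks in the CBFA2T3 window, and most were low for their lists. Their median folds in the window were 4.98 and 5.32, below the medians of 5.55 and 6.61 of the whole lists. At RUNX1T1, by contrast, the same libraries had 5 and 8 peaks, and at CBFA2T2 they had 16 and 13. Among the 3 genes CBFA2T3 thus had the most RCOR2 peaks in each full list. The order of regions turned where peaks were cut by fold. With an equal number of top peaks per library (13644) CBFA2T3 had 3 RCOR2 regions and CBFA2T2 had 4, against 15 and 10 in the full lists. With the peaks above each list's median fold CBFA2T3 had 6 and CBFA2T2 had 7. The order did not turn with a flank of 10 kb (9 at CBFA2T3 and 3 at CBFA2T2) or with 50% reciprocal overlap (11 and 7).

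By position, 6 of the 15 regions lay inside the CBFA2T3 body, 2 at its internal start site, 1 at its 3′ end, 1 at the shared end of GALNS and TRAPPC2L and 5 in the flank, all of these 5 within the body of GALNS. The highest single fold was at the end of GALNS and TRAPPC2L, at 88856142-88857554, with folds of 18.9 and 62.2 in the induced libraries. GALNS encodes a lysosomal sulfatase and TRAPPC2L a subunit of a vesicle tethering complex. By the lower of the 2 folds, a region in GALNS at 88830786-88832286 (22.9 and 19.8) stood above that shared end. Also high was a region in GALNS at 88838930-88839488 (16.0 and 23.4). The strongest regions of this window were thus outside CBFA2T3.

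Within CBFA2T3 the highest lower fold belonged to a region beside the internal start site, at 88940370-88941179, with 8.30 and 7.97 in the induced libraries. The region on the other side of that site, at 88941433-88942190, had 4.43 and 11.7. The peak of replicate 2 in this region covered 168 of the 300 promoter bases printed above, and no other library had a peak on them. The region 88.5 kb in had folds of 7.74 and 18.6, and the region at the 3′ end had 4.98 and 9.04. In the latter only the replicate 2 peak reached the 2 kb around the 3′ end, and it met only the edge of that stretch. The replicate 1 peak, at 88876925-88877259, lay inside the body. At the 5′ end of the body RCOR2 had 1 peak, from replicate 1, with a fold of 4.34, so CBFA2T3 alone among the members lacked a region of any protein at its 5′ end. Of the 15 regions, 13 overlapped neither the RCOR2-high nor the RCOR2-low list. The share of all RCOR2 regions on neither list was not counted.

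**Figure D3:**
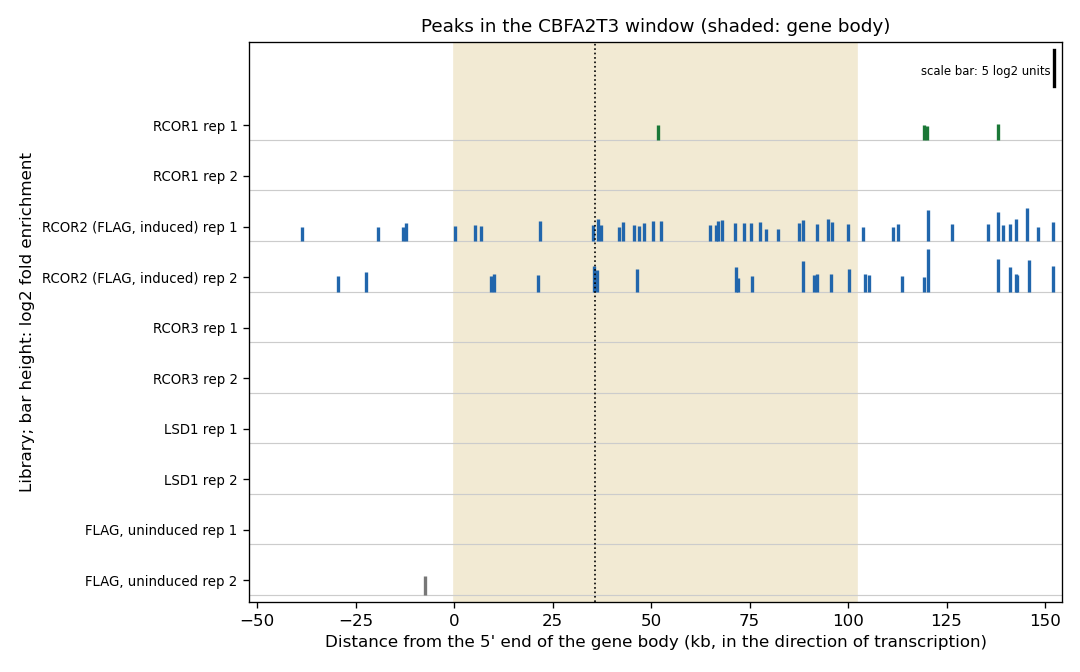
Peaks of the 10 libraries along the CBFA2T3 window, drawn as distance from the 5′ end in kb with bar height as log2 fold enrichment. The dotted line is the internal start site at 35.86 kb. Induced RCOR2 has bars along the whole body and the right flank, and the lines of RCOR3 and LSD1 are empty.

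Taken over the 3 windows, 33 merged regions were found out of 46988 in the genome, of which 24 held 1 protein, 3 held 2, 5 held 3 and 1 held all 4. RCOR2 was the single protein of 21 regions, 15 of them at CBFA2T3, and LSD1 was the single protein of 3. The authors' RCOR2-high list overlapped 6 of the 33 and the RCOR2-low list 12. All 8 regions with LSD1 were among the 12. How many of all merged regions, or of all LSD1 regions, lie on these lists was not counted. The overlaps are therefore not shown to be particular to the family.

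**Figure D4:**
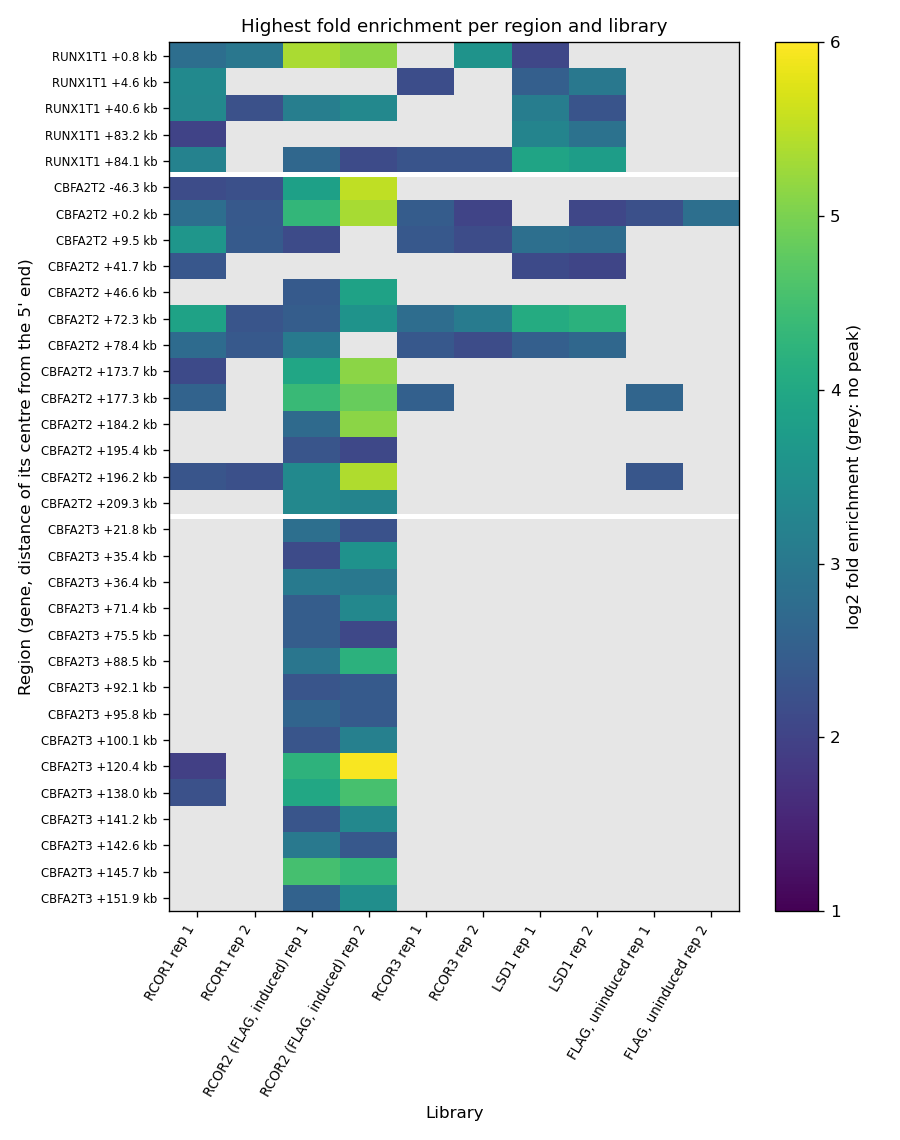
Highest log2 fold enrichment of each library in each of the 33 merged regions, with regions named by gene and distance from its 5′ end and libraries along the bottom. Grey means that the library had no peak in the region. The 15 rows of CBFA2T3 are coloured almost only in the columns of induced RCOR2, and the LSD1 columns are coloured mainly at RUNX1T1 and CBFA2T2 regions inside the bodies.

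Each protein was then described by the position of its regions. LSD1 had 8 regions in the 3 windows, of which 7 lay inside a member's body, 1 at the internal start site of CBFA2T2 and 0 at an end of any coding gene. RCOR2 had 29, with 4 at ends of members, 7 at ends of neighbours, 3 at internal start sites, 9 inside bodies and 6 in flanks. RCOR1 had 9, with 3 at members' ends, 2 at neighbours' ends, 1 at an internal start site and 3 inside bodies. RCOR3 had 5, with 1 at a member's end, 1 at an internal start site and 3 inside bodies.

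Counted per gene, all 3 members had an RCOR2 region at an end, against 70.8% of all genes. For RCOR1 it was 2 of 3 against 30.5%, for RCOR3 1 of 3 against 10.6%, for LSD1 0 of 3 against 4.17%, and for uninduced FLAG 1 of 3 against 5.77%. With 3 genes these shares move in large steps, and absence of LSD1 from their ends is what most genes showed. For RCOR2, CBFA2T3 counted only through its 3′ end region, where the peak of replicate 2 alone reached the end window, and only at its edge.

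The share of peaks at coding-gene ends was compared between the proteins over the libraries. It was 37.1% and 60% in the RCOR1 libraries, 22.1% and 35.4% in the induced RCOR2 libraries, 25.0% and 22.2% in the RCOR3 libraries, and 6.67% and 11.1% in the LSD1 libraries. Both LSD1 libraries were below all 6 others, while the ranges of RCOR2 and RCOR3 overlapped. The share of each whole list at coding-gene ends was not computed, so this order is not shown to be particular to the family. Over all genes, 4.17% had an LSD1 region at an end, against 10.6% for RCOR3, 30.5% for RCOR1 and 70.8% for RCOR2. The means were 48.6 ± 16.2% for RCOR1, 28.7 ± 9.45% for RCOR2, 23.6 ± 1.96% for RCOR3 and 8.89 ± 3.14% for LSD1 (SD, n = 2 each). An exact permutation test of F over all distinct assignments of the 8 libraries gave F = 5.91 and p = 0.0286, and p = 0.0571 after Benjamini-Hochberg adjustment over the 2 F tests made, so the difference did not pass at 0.05. With ends taken as 500 bp it did pass (exact permutation p = 0.00952, adjusted 0.0190). It did not with the ends of the members alone (exact permutation p = 0.190) or with a flank of 10 kb (exact permutation p = 0.33). The peaks behind a share were few, between 8 and 68 per library. LSD1 came from the shRNA derivative and RCOR2 from doxycycline-treated cells. Protein therefore cannot be told apart from line or treatment in this comparison.

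The proteins were also compared for how much of their lists fell on the family, with the same limit of line and treatment. Per 1000 peaks of the list, RCOR1 had 0.711 and 0.546 in the 3 windows, induced RCOR2 0.899 and 0.804, RCOR3 0.586 and 0.324, and LSD1 0.773 and 0.458. Both RCOR2 libraries were the highest, and those of RCOR1, RCOR3 and LSD1 overlapped. With 2 libraries per group the test did not show a difference between the proteins (F = 2.07, exact permutation p = 0.267 over the same assignments, also 0.267 adjusted).

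Against the background antibody control, the induced FLAG libraries had 68 and 48 peaks in the 3 windows and the uninduced libraries 4 and 3. The groups did not overlap, with means of 58.0 ± 14.1 in induced cells and 3.50 ± 0.707 in uninduced cells (SD, n = 2 each). The difference of 54.5 peaks had an exact permutation p of 0.33 (two-sided), the smallest that 2 libraries against 2 can give. The lists themselves were unequal, at 75643 and 59726 peaks in induced cells against 10253 and 14958 in uninduced cells. Per 1000 peaks of the list the gap was smaller, at 0.899 and 0.804 in induced cells against 0.390 and 0.201 in uninduced cells.

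**Figure D5:**
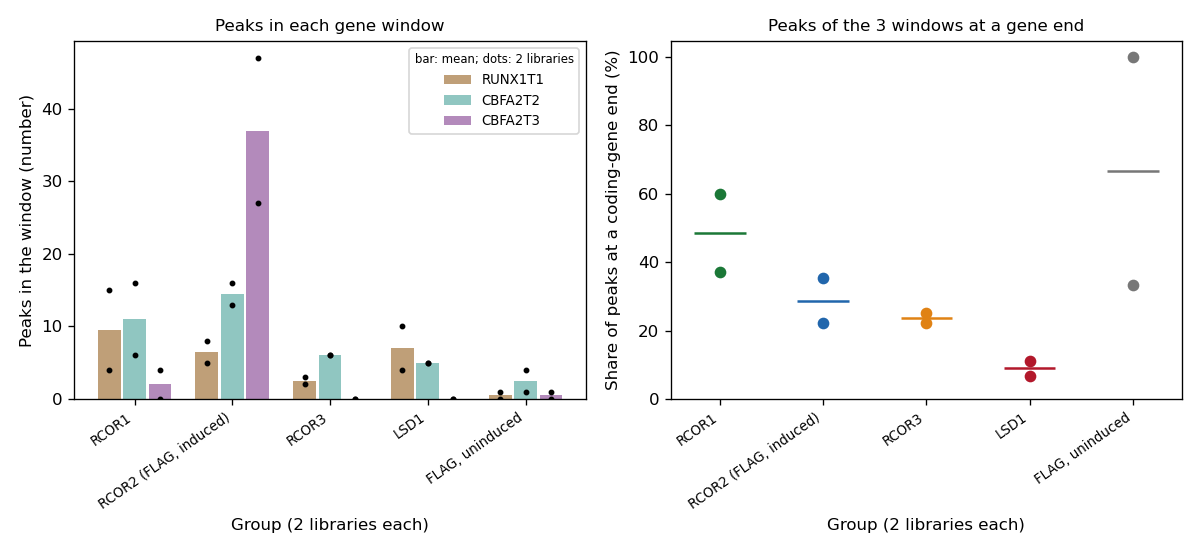
Left, number of peaks per library in each gene window, with bars for the mean of 2 libraries and points for the libraries. Right, percentage of the peaks in the 3 windows that lay at a coding-gene end, with points for libraries and lines for means. The CBFA2T3 bar is high for induced RCOR2 alone, and both LSD1 points, at 6.67% and 11.1%, lie below those of the other proteins.

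Sharing between proteins was read region by region. Each of the 8 LSD1 regions of the family overlapped a peak of RCOR1 replicate 1, against 83.5% of the LSD1 regions of the genome. With the shorter list of RCOR1 replicate 2 it was 4 of 8, against 40.4%. Induced RCOR2 had peaks on 5 and 3 of the 8, against 28.0% and 27.3% of LSD1 regions of the genome, and RCOR3 on 5 and 4, against 44.8% and 40.4%. In the other direction, LSD1 had peaks on 4 of the 29 RCOR2 regions in each of its libraries, against 9.68% and 8.04% of RCOR2 regions of the genome. Uninduced FLAG had peaks on 3 and 1 of the 29, against 17.8% and 15.2%.

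Likeness between genes was measured over the 10 libraries as the Euclidean distance of log2(1 + highest fold in the window). RUNX1T1 and CBFA2T2 were 3.20 apart on this scale, and CBFA2T3 was 7.98 from RUNX1T1 and 8.52 from CBFA2T2. The median distance of all genes was 6.5 to RUNX1T1, 6.65 to CBFA2T2 and 6.08 to CBFA2T3, so CBFA2T3 was farther from its relatives than a typical gene was. The genes most like RUNX1T1 were RASL10B, GAS2L2 and MMP28, neighbours with overlapping windows and hence the same distance of 0.915. Those most like CBFA2T2 were CAMK4 (0.717), CYRIB (0.726) and RAPGEF5 (0.743). Those most like CBFA2T3 were EXOSC7 and CLEC3B (0.562 each, also neighbours) and PAX3 (0.688), which encodes a paired-box factor of the neural crest.

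The genes of proteins that work with the ETO family were looked at in the same way for regions at their ends, over 27 genes that include the RUNX factors, the E proteins, corepressors and deacetylases. For RCOR2, 20 of the 27 had one (74.1%, against 70.8% of all genes), for RCOR1 12 (44.4%, against 30.5%), for RCOR3 4 (14.8%, against 10.6%), for LSD1 1 (3.70%, against 4.17%) and for uninduced FLAG 1 (3.70%, against 5.77%). These shares lay near those of all genes for RCOR2, RCOR3 and LSD1. The median number of regions in their windows was 4 for RCOR2, against 3 over all genes.

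Among the strongest RCOR2 ends of the partners were those of deacetylases and of the E protein genes TCF12 and TCF3. HDAC2 had folds of 33.5 and 57.7, HDAC3 26.4 and 72.2, and HDAC1 23.7 and 55.3 in the induced libraries. In the same libraries the E protein gene TCF12 had folds of 32.1 and 64.9, and TCF3 had 28.9 and 27.4. Uninduced FLAG also had peaks at the ends of these genes. At TCF3 both uninduced libraries had one (5.83 and 4.72), without a shared region. Replicate 1 alone had one at TCF12 (5.44), HDAC2 (5.41) and HDAC3 (5.06), and replicate 2 alone at HDAC1 (4.72). RCOR3 regions were at the ends of TCF3, TCF12, HDAC3 and BCL6, all of which had RCOR1 regions too. The 1 LSD1 region at an end was that of TBL1X (5.49 and 4.71), which encodes a subunit of nuclear corepressor complexes. RUNX1, RUNX2 and TCF4, also an E protein gene, had no peak at an end in any library. RUNX3 had 1, from RCOR2 replicate 1 with a fold of 3.29.

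The whole series bears on these values in a few ways. The lists held between 10253 and 75643 peaks, the 2 RCOR1 lists (49250 and 18297) and the 2 RCOR3 lists (13644 and 27786) were unequal within their groups, and read depth is unknown. A region needs both lists, so the shorter list of a group limits its count. With lists cut to the same 13644 top peaks, RCOR2 had 8 regions in the 3 windows, LSD1 7, RCOR1 5 and RCOR3 1, so the gap of 29 against 8 between RCOR2 and LSD1 was not seen at equal list length. Peaks at marker genes show occupancy and not expression. Ends of the 8 adrenergic genes checked carried RCOR2 in 8, RCOR1 in 6, RCOR3 in 4 and LSD1 in 2, and ends of the 6 mesenchymal genes carried RCOR2 in 6, RCOR1 in 2 and neither RCOR3 nor LSD1. Over all genes these shares were 70.8% for RCOR2, 30.5% for RCOR1, 10.6% for RCOR3 and 4.17% for LSD1, so RCOR2 at such ends is what most genes showed.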

How the data were processed

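Per the submitters' processing notes, BWA 0.7.17, MACS2 and deepTools were used, on the build GRCh38. The control library, duplicate handling and later filters were not given in the sources used here. Each deposited list holds 1 library's peaks with the authors' fold enrichment, a ratio over local background, and the −log10 of the q-value the authors' caller gave. The largest q-value per deposited list was between 0.0457 and 0.0499. The RCOR2-high and RCOR2-low lists deposited by the authors hold positions without values.

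The peaks of chromosomes 1 to 22 and X were analysed with Python 3.11.15, pandas 2.3.3 and numpy 2.4.6. Peaks of a group's 2 libraries were merged where they overlapped by at least 1 bp, and merged intervals with peaks of both were its regions. Gene bodies and promoters were RefSeq's. The strand of RUNX1T1 is textbook knowledge. Replicates were numbered per the labels, although the peak names inside the lists of RCOR1 replicate 2, RCOR3 replicate 2 and all FLAG libraries carry other replicate names. The members, lists and rules were chosen with earlier results of these data known. Regions were named by a rule: those with at least 3 proteins or at a member's end, and up to 5 per member and protein by the lower of the 2 folds. Partner genes were named up to 6 by the lower RCOR2 fold, with others named after their values were seen. A few genes that this rule takes are not reported here. The 2 F tests and the induction test were exact permutation tests over libraries, tested on simulated data. Alternatives covered overlap, peak thresholds, window sizes, equal list lengths and single replicates. Figures were drawn with matplotlib 3.10.9.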

Additional observations from a re-analysis of the deposited data

How the results depend on the processing

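Region counts in the 3 windows depended on the rule for support, and the counts below set each alternative against the 9 regions of RCOR1, 29 of RCOR2, 5 of RCOR3, 8 of LSD1 and 1 of uninduced FLAG. Peaks of either library gave 36, 83, 11, 16 and 6 in that order. With 50% reciprocal overlap RCOR1 and RCOR3 had 2 each. With peaks above each list's median fold RCOR1 had 2, RCOR2 16, RCOR3 1 and uninduced FLAG 0. With 13644 top peaks per list RCOR1 had 5, RCOR2 8, RCOR3 1 and LSD1 7. A flank of 10 kb left 16 for RCOR2. Leaving out 1 replicate gave 10 to 35 for RCOR1, 48 to 68 for RCOR2, 8 to 9 for RCOR3, 9 to 15 for LSD1 and 3 to 4 for uninduced FLAG, since the other library then counted alone. Of 114 alternative counts for single genes and groups, 71 stayed within 1.5 times and 43 did not. RCOR3 and LSD1 stayed at 0 in the CBFA2T3 window in every alternative run, and RCOR1 had 4 there by replicate 1 alone or by either library.

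The test between proteins passed for raw numbers of peaks in place of peaks per 1000 (F = 7.72, exact permutation p = 0.0476), where list length enters. The share at ends passed with 500 bp ends (F = 5.19, exact permutation p = 0.00952). With members' ends alone it gave F = 1.42 (exact permutation p = 0.190), and with a flank of 10 kb F = 1.75 (exact permutation p = 0.33). With a replicate block the induced minus uninduced difference of 54.5 peaks had an exact permutation p of 0.5, the smallest that block allows, and both F tests 0.0833. With 2 pairs per comparison the numbers could not be shown to pair the libraries, and they share only a number. The cause of these changes was not tested. Read depth is unknown, and 2 libraries per group limit every comparison.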

Other observations

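The windows were set by distance. At CBFA2T3 the outermost RCOR2 region began 99 bp inside the window, and the next RCOR2 region lay 0.880 kb outside it. At CBFA2T2 an RCOR2 region crossed the edge, and the next lay 0.689 kb beyond. At RUNX1T1 the nearest regions outside were RCOR2 regions 88.3 and 77.3 kb beyond the window.

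LSD1 replicate 1 had 10 peaks in the RUNX1T1 window and replicate 2 had 4, although the 2 lists held 19392 and 19667 peaks. All 4 peaks of replicate 2 were shared with replicate 1. The 6 peaks of replicate 1 without support had folds between 2.72 and 6.07.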
